A study of Mus musculus with 54 samples.

Results

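Loss of p53 was examined in the cerebellum of mice at postnatal day 5 (P5) by setting the 3 libraries labelled p53 Nes-cre against the 3 labelled Control, all 6 of the same tissue and age, out of 20 libraries at P5 and 54 in the whole series. The members are these 6 libraries, taken by the genotype, age and replicate number in their labels and in the column headers of the deposited P5 log2 CPM table. Nes-cre names Cre recombinase under the Nestin promoter, which is active in neural progenitors. The labels do not give the control animals' alleles, whether they carried Cre, the strain, or whether each replicate was its own animal. The main p values therefore cover the spread within groups over all 20 P5 libraries, which may be technical. Libraries labelled RnaseH2B,p53 Nes-cre (4, called Rnaseh2b/p53 here), RnaseH2B Nes-cre (3, called Rnaseh2b) and Atm Nes-cre (3, called Atm) served for comparison. The remaining P5 libraries, whose titles name both Rnaseh2b and Atm (4, called Rnaseh2b/Atm), entered the same fit and so its estimate of spread. RNA was total and the library kit stranded.

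p53, encoded by Trp53, is a transcription factor that is kept low by the ubiquitin ligase Mdm2 and is stabilised when kinases such as Atm sense DNA breaks. It then raises genes for cell cycle arrest, apoptosis, metabolism and DNA repair. In the newborn cerebellum, granule cell progenitors divide rapidly in the external granule layer under Sonic hedgehog signalling, and p53 is known there for removing progenitors with damaged DNA.

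Depth over the 6 libraries was 54.0 to 87.4 M reads in genes (M, mega). No p53 or control libraries were copies of each other, with chi-square per degree of freedom of at least 19.6 between any pair of one group. Control 2 stood apart from the other controls and was low for genes of the granule lineage and choroid plexus: Ttr, the transthyretin of choroid plexus, had 10.05, 9.83 and 10.13 log2 CPM in the p53 libraries, against 10.32, 6.26 and 9.82 in controls 1, 2 and 3. Xist, which marks female tissue, was at −0.85, 8.08 and 8.35 log2 CPM in p53 libraries 1, 2 and 3, against 7.73 to 8.46 in the controls. Markers of cerebellum were present in all 6, with Zic1 of granule cells at 7.86 to 9.35 log2 CPM and Car8 of Purkinje cells at 6.66 to 8.17 log2 CPM. Medians of single gene lists that control 2 moved by more than 1.5 times, or across 0, are given with and without it.

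The p53 response is shown first by its DNA. p53 binds pairs of half-sites with the core CATG or close variants of it. The 250 bases before each listed gene start were searched for CATG, any 6 bases and CATG again. This pattern reads the same on both strands and overlaps no other motif searched. The bases come from RefSeq for GRCm38.p6, not from the build of the expression files. Cdkn1a, the classical p53 target that inhibits cyclin-dependent kinases, is shown for its paired core, and Rec8, Synpo2 and Ddit4l because their transcripts changed with p53 loss both with and without Rnaseh2b deletion. Every CATG is in capitals.
Cdkn1a, chr17:29090729-29090978, plus strand: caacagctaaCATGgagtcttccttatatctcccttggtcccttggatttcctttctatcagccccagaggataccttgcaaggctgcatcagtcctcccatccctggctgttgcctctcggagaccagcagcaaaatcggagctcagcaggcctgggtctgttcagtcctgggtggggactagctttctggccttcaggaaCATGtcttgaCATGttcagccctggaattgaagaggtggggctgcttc
Rec8, chr14:55617916-55618165, plus strand: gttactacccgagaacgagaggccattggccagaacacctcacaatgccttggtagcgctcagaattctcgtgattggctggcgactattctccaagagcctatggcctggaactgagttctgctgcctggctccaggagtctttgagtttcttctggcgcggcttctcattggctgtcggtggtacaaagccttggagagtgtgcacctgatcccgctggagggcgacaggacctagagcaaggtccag
Synpo2, chr3:123236150-123236399, minus strand: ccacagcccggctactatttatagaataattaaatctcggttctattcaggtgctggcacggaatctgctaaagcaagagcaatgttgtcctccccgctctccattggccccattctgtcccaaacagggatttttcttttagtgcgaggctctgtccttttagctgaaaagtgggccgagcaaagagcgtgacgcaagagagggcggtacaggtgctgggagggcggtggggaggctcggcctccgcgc
Ddit4l, chr3:137623422-137623671, plus strand: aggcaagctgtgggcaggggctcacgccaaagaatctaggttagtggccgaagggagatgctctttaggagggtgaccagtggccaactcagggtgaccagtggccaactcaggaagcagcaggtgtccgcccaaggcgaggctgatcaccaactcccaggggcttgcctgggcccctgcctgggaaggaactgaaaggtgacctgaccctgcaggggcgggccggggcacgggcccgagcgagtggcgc
The Cdkn1a window lies before one of its 2 listed starts and was chosen because it holds the searched pair. It held 3 CATG cores, and 2 of them formed that pair, beginning 48 bases before that start. The windows of Rec8, Synpo2 and Ddit4l held 0. The pair was present before 154 of 27025 genes in the promoter table (0.570%), before 1 of 29 p53 targets found there, which was Cdkn1a, and before 0 of 14 found there of the genes that differed from control. A match is a string of letters, not a measured binding site.

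Trp53 transcripts were lower in every p53 library. They stood at 1.73, 1.30 and 1.89 log2 CPM in the p53 libraries, against 4.19, 3.02 and 3.92 log2 CPM in the controls. The groups did not overlap, and the difference was −2.07 ± 0.31 log2 (SE, limma, adjusted p = 0.0139, n = 3 and 3). Without control 3, p53 1 or p53 2 the adjusted p in limma was 0.064, 0.0628 and 0.0729, and it was 0.284 when no other group entered the fit. An exact permutation test of these 6 values gave p = 0.1, the smallest it can give with 3 a side. Per length, the mean was 1.03 FPKM in p53 and 4.51 FPKM in control. In whole tissue, fewer cells of a type and less RNA per cell cannot be told apart. Of the 10 tested genes next to Trp53 none was called, with differences between −0.22 and 0.22 log2. These genes include Wrap53, which overlaps Trp53 on the opposite strand, at 0.02 ± 0.13 log2. Whether counting used strand is not given in the sources used here, so reads of that pair may be shared.

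**Figure D1:**
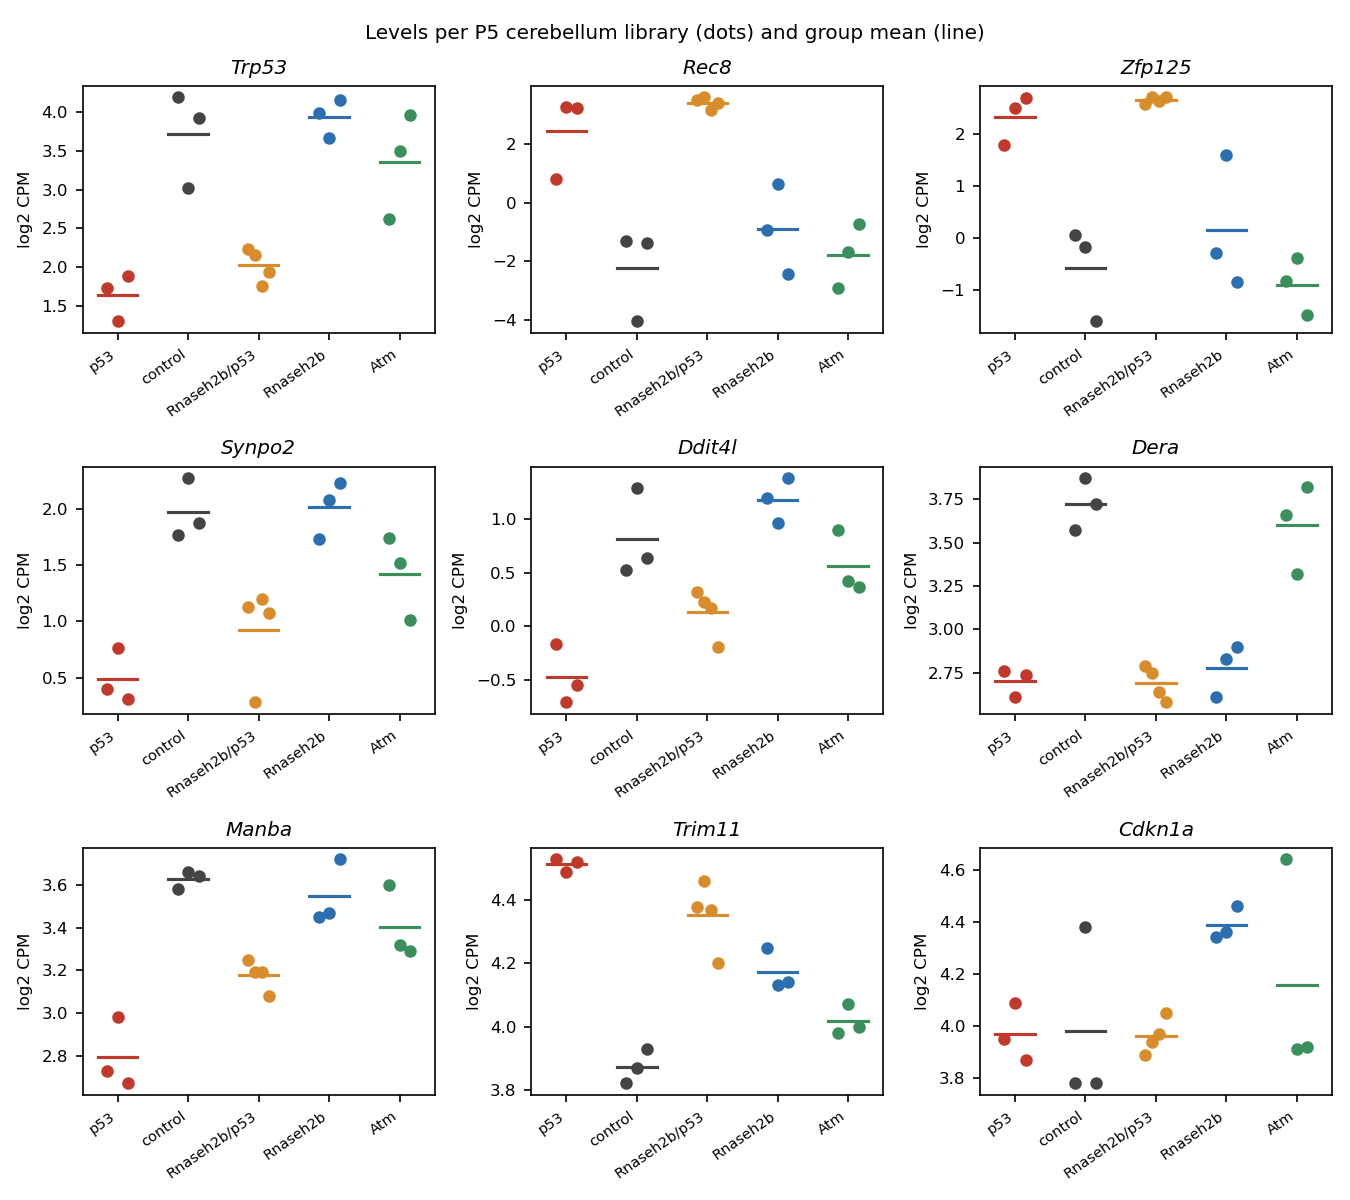
Levels in log2 CPM (vertical axes, each with its own range) of 9 genes in single P5 libraries (dots), with the mean of each group as a line. Trp53 lay between 1.30 and 1.89 in p53 libraries and between 3.02 and 4.19 in control, while Cdkn1a overlapped between both groups.

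Few other transcripts passed the test. Of 15421 genes tested, 27 passed an adjusted p of 0.05 in limma (0.175% of genes tested), of which 12 rose (0.0778%) and 15 fell (0.0973%) in p53. At an unadjusted p under 0.05 there were 913. All 27 were free of overlap between the 3 p53 and the 3 control libraries, as were 1497 of all genes tested (9.71%). The median over all genes was 0.00 log2. With the replicate number as a block, 13 genes passed, 12 of them among the 27. With only both groups in the fit 3 passed, without control 2 there were 3, without control 3 there were 5, without p53 1, 2 or 3 there were 5, 4 and 6, and without control 1 there were 37. Of the 27 genes, 2 (Gm15920 and Gm10478) remained called in all 6 fits that left out 1 of these libraries, 9 were called in none of them, and all 27 kept their direction in each. Gm10478 and Npm3-ps1 reached 1 CPM only in libraries with p53 deleted, and Gm9847 only in the 3 p53 libraries. All of these passed the filter only through groups where they are high.

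**Figure D2:**
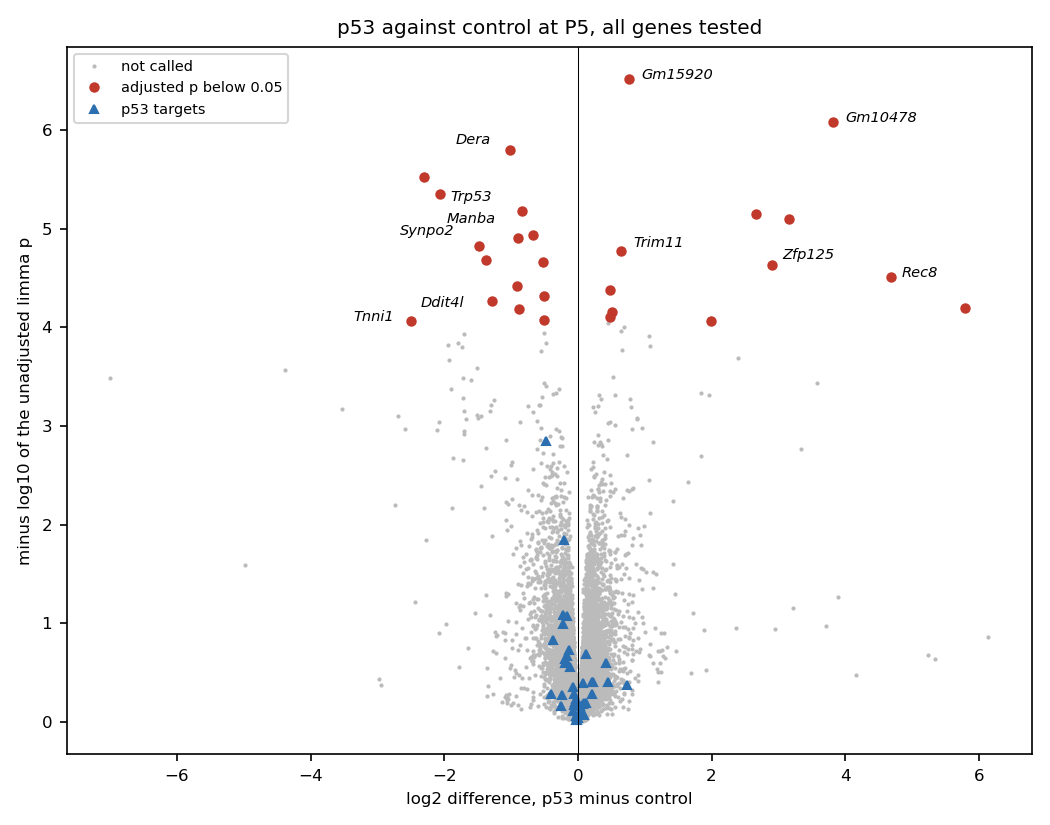
Every gene tested, with the log2 difference of p53 minus control (horizontal) against minus log10 of the unadjusted limma p (vertical). The 27 genes with an adjusted p below 0.05 are red, and the 39 p53 targets, shown as blue triangles, lie below them, the uppermost being Ephx1 at −0.48.

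The genes that rose began with Rec8, the cohesin subunit that holds sister chromatids together in meiosis. It had 0.82, 3.27 and 3.24 log2 CPM in p53, against −1.31, −4.05 and −1.37 in control. Library p53 1 was well below the other p53 libraries but above every control, and the difference was 4.69 ± 0.82 log2 (limma, adjusted p = 0.0296). Per length its mean was 3.33 FPKM in p53 and 0.135 FPKM in control. With the replicate block its adjusted p was 0.0681 in limma. The Rnaseh2b/Atm libraries, not labelled as p53-deleted, had −0.05, 0.74, 0.11 and −0.13 log2 CPM of Rec8. They lay above every control and below every p53 library. The Atm libraries had −2.90, −1.69 and −0.74 log2 CPM.

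Zfp125, a zinc finger gene, was the second named gene with a large rise. It had 1.80, 2.50 and 2.70 log2 CPM in p53, against 0.07, −0.17 and −1.60 in control. All p53 libraries lay above all controls, by 2.90 ± 0.50 log2 on average (limma, adjusted p = 0.0243). In Rnaseh2b/Atm, not labelled as p53-deleted, Zfp125 had 1.43, 1.35, 1.27 and 1.36 log2 CPM. These libraries too lay above every control, though below every p53 library. The Atm libraries had −0.83, −0.39 and −1.48 log2 CPM.

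The other named rises were small and tight. Trim11, a ubiquitin ligase, had 4.53, 4.49 and 4.52 log2 CPM in p53, against 3.82, 3.87 and 3.93 in control (0.64 ± 0.11 log2, limma adjusted p = 0.0217). Cuedc1, a CUE domain protein, had 4.89, 4.88 and 4.84 log2 CPM in p53, against 4.25, 4.52 and 4.33 in control (0.50 ± 0.10 log2, limma adjusted p = 0.0465). Within each group these libraries lay closer together than the distance between the groups. Neither kept an adjusted p under 0.05 with the replicate block, where limma gave 0.0585 for Trim11 and 0.0794 for Cuedc1.

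Among the genes that fell were enzymes of sugar and glycan breakdown. Dera, the aldolase that splits deoxyribose phosphate, had 2.76, 2.61 and 2.74 log2 CPM in p53, against 3.57, 3.87 and 3.72 in control (−1.02 ± 0.14 log2, limma adjusted p = 0.00826). Manba, a lysosomal beta-mannosidase, had 2.73, 2.98 and 2.67 log2 CPM in p53, against 3.58, 3.66 and 3.64 in control (−0.84 ± 0.13 log2, limma adjusted p = 0.0156). Both kept an adjusted p under 0.05 with the replicate block over all P5 libraries (limma, 0.0343 and 0.0347). No gene did with the block and only p53 and control in the fit.

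Synpo2 and Ddit4l were lower as well. Synpo2, an actin-binding protein of muscle Z-discs, had 0.40, 0.76 and 0.31 log2 CPM in p53, against 1.77, 2.27 and 1.87 in control (−1.48 ± 0.24 log2, limma adjusted p = 0.0209). Ddit4l, an inhibitor of the growth kinase complex mTORC1, had −0.17, −0.71 and −0.55 log2 CPM in p53, against 0.52, 1.29 and 0.64 in control (−1.29 ± 0.24 log2, limma adjusted p = 0.042). No p53 library reached the lowest control for either gene. With the replicate block limma gave both an adjusted p of 0.0652. Ddit4, the related and better known mTORC1 inhibitor and a p53 target, differed by −0.06 ± 0.08 log2 and was not called (limma, adjusted p = 0.965).

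Olfml1, a secreted olfactomedin-like protein, had 1.35, 1.52 and 1.08 log2 CPM in p53, against 2.52, 2.07 and 2.12 in control (−0.92 ± 0.16 log2, limma adjusted p = 0.0348). Pcdhb6, one of the clustered protocadherins that give neurons a surface identity, had 1.15, 1.36 and 1.21 log2 CPM in p53, against 2.03, 2.19 and 2.13 in control (−0.87 ± 0.16 log2, limma adjusted p = 0.0461). In both genes every p53 library was below every control. Trhde, the membrane enzyme that degrades thyrotropin-releasing hormone, had 4.89, 4.85 and 4.77 log2 CPM in p53, against 5.26, 5.30 and 5.53 in control (−0.53 ± 0.09 log2, limma adjusted p = 0.0243). Akirin2, a nuclear factor needed for proteasome import, had 5.01, 5.01 and 5.10 log2 CPM in p53, against 5.67, 5.41 and 5.55 in control (−0.51 ± 0.09 log2, limma adjusted p = 0.0388). These last falls were the smallest of the named ones. With the replicate block limma gave an adjusted p of 0.0585 for Olfml1, Pcdhb6 and Trhde and of 0.0693 for Akirin2. Low levels of Trhde and Pcdhb6 were not particular to p53 libraries. In Rnaseh2b/Atm, not labelled as p53-deleted, Trhde had 4.64, 4.68, 4.62 and 4.7 log2 CPM, below every p53 library. Pcdhb6 had 1.22, 1.36, 1.7 and 1.47 log2 CPM there, below every control. The Atm libraries had 5.23, 5.34 and 5.27 for Trhde and 2.13, 2.04 and 2.15 for Pcdhb6. Olfml1 and Akirin2 stood above every p53 library in Rnaseh2b/Atm and in Atm.

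Tnni1, the troponin I of slow skeletal muscle, was at the bottom of the measured range. It had −3.98, −4.17 and −2.62 log2 CPM in p53, against −1.84, −1.31 and −0.12 in control (−2.49 ± 0.48 log2, limma adjusted p = 0.0494). This was 5, 6 and 16 reads in p53, against 20, 28 and 98 in control. Markers of skeletal muscle summed to 22.7 to 24.4 CPM in p53 and 22.2 to 27.4 CPM in control. Of 14 tested, 1 fell, where 0.0973% of all genes did, and 13 were not called. The list median was −0.39 log2, against 0.00 over all genes, and −0.79 without control 2. Tnnc2, a troponin of fast muscle, had −4.66, −5.58 and −4.53 log2 CPM in p53, against −3.14, −1.79 and −3.51 in control, without a call, and Myh8, a perinatal myosin, stood on the other side at 0.98 ± 0.41 log2. The part of muscle tissue in the Tnni1 result was not tested.

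The other 13 called genes were gene models and pseudogenes, 8 higher and 5 lower, and related genes may share their reads. Gm15920 had the smallest adjusted p of all genes (limma, 0.00472), at 3.27 log2 CPM in each p53 library, against 2.36, 2.53 and 2.62 in control. Gm10478 had −0.70, 0.20 and 0.11 log2 CPM in p53, against −3.33, −4.44 and −4.07 in control (3.81 ± 0.50 log2, limma adjusted p = 0.00646). Rpl15-ps2 had 0.63, 1.14 and 1.09 log2 CPM in p53, against 2.98, 3.11 and 3.66 in control (−2.30 ± 0.33 log2, limma adjusted p = 0.0116). Npm3-ps1 had 0.62, 0.45 and 0.38 log2 CPM in p53, against −1.31, −3.09 and −2.13 in control (2.66 ± 0.41 log2, limma adjusted p = 0.0156). These 4 remained called with the replicate block. Gm10478 and Npm3-ps1 reached 1 CPM only in libraries with p53 deleted. Gm9847, singled out after its values were seen, had 0.99, 0.84 and 0.86 log2 CPM in p53. It was below 1 CPM in every other P5 library, so it passed the filter only through the p53 group. Gm13331, singled out after its values were seen, had the largest difference among the called genes, with 403, 453 and 485 reads in p53 and 4, 8 and 8 in control. Its rise over control was not particular to p53 libraries. It had 1.22, 1.17 and 1.27 log2 CPM in Rnaseh2b and −3.02, 1.36 and 1.06 in Atm, against −4.10, −3.09 and −3.68 in control. With the replicate block its adjusted p in limma was 0.0763.

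On either side of the threshold, Tnni1, Gm5900 and 3830406C13Rik passed at an adjusted p of 0.0494 in limma, while Sugp1, a splicing factor, just missed. With the replicate block Tnni1 stayed called at 0.0443 in limma, while Gm5900 was at 0.0693 and 3830406C13Rik at 0.0739. Sugp1 had 4.62, 4.85 and 4.61 log2 CPM in p53, against 4.33, 4.12 and 4.30 in control. Tmod3, which caps actin filaments, had 5.80, 5.65 and 5.83 log2 CPM in p53, against 5.35, 4.79 and 5.05 in control, at an adjusted p of 0.0531 in limma. Both genes showed no overlap. Rnf43, a ligase that removes Wnt receptors, differed by 1.08 ± 0.22 log2 and was not called, nor was Dctn3, a dynactin subunit, at −0.50 ± 0.10 log2.

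By position, 25 of the 27 called genes had a chromosome in the reference table, which was used for gene order only. Chromosome 3 held 4 of 746 tested (0.536%) and chromosome 11, which carries Trp53, held 3 of 1193 (0.251%). On chromosome 3, Manba and Ddit4l were 5 tested genes apart, and 1810037I17Rik and Synpo2 were 2 apart. The labels give no strain, so the part of linked genetic background was not tested.

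The classical targets of p53 lay around 0. Of 40 listed targets 39 were tested, and 0 rose, 0 fell and 39 were not called, where 0.175% of all genes were called in either direction, a share too low for 0 of 39 to set the targets apart. Their median was −0.03 log2, against 0.00 over all genes, with 24 below 0, and 2 were lower at an unadjusted p under 0.05 and 0 higher. Over all genes, 913 of 15421 had such a p in either direction. The list was written from textbook knowledge with earlier results of these data known. The 95% intervals had medians of −0.37 for their lower and 0.25 for their upper ends, so a change beyond that size would fall outside the interval of a typical target.

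Among targets of arrest and feedback, 12 genes with a median of 0.01 log2 (−0.02 without control 2), Cdkn1a had 3.95, 4.09 and 3.87 log2 CPM in p53, against 3.78, 4.38 and 3.78 in control. The difference was −0.01 ± 0.17 log2, with a 95% interval of −0.36 to 0.34. Mdm2, the ligase that degrades p53 and is itself induced by it, had 5.29, 5.19 and 5.35 log2 CPM in p53, against 5.32, 5.10 and 5.32 in control, with an interval of −0.14 to 0.21. Libraries of both groups were interleaved for both genes. Ccng1, a cyclin induced by p53, differed by −0.14 ± 0.10 log2, and Zmat3, an RNA-binding zinc finger protein, by −0.16 ± 0.13 log2.

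Among 14 targets in apoptosis the median was −0.03 log2 (−0.04 without control 2). Bax, which opens the mitochondrial membrane, differed by −0.04 ± 0.08 log2, and Aen, an exonuclease that cuts DNA in dying cells, by −0.08 ± 0.10 log2. Bbc3 (Puma) and Pmaip1 (Noxa), triggers of that pathway, differed by −0.03 ± 0.16 and −0.02 ± 0.44 log2. Pmaip1 was too variable for a narrow limit, with an interval of −0.96 to 0.91.

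The 13 tested targets in metabolism and repair had a median of −0.11 log2 and contained both unadjusted differences. Ephx1, the microsomal epoxide hydrolase, had 2.19, 2.28 and 2.25 log2 CPM in p53, against 2.75, 2.78 and 2.64 in control. The groups did not overlap, and the difference of −0.48 ± 0.13 log2 was not called (limma, unadjusted p = 0.00142, adjusted p = 0.206). Rrm2b, the ribonucleotide reductase subunit that p53 induces for repair, had 4.53, 4.53 and 4.5 log2 CPM in p53, against 4.64, 4.83 and 4.72 in control (−0.21 ± 0.08 log2, limma adjusted p = 0.608). Summed over this list, 1 of 24 looked at, the p53 libraries ran from 247 to 252 CPM and the controls from 261 to 264 CPM. Such a lack of overlap was found for 9.71% of single genes tested, and for the sums of some lists of other cell types. The sums overlapped for arrest and feedback (259 to 269 CPM in p53 and 262 to 284 CPM in control) and for apoptosis (263 to 279 CPM in p53 and 260 to 309 CPM in control). Of the regulators and relatives of p53, such as Mdm4, Atm and Usp7, 0 of 9 tested were called. Their median was 0.09 log2 with 8 above 0, and −0.10 with 1 above 0 without control 2.

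**Figure D3:**
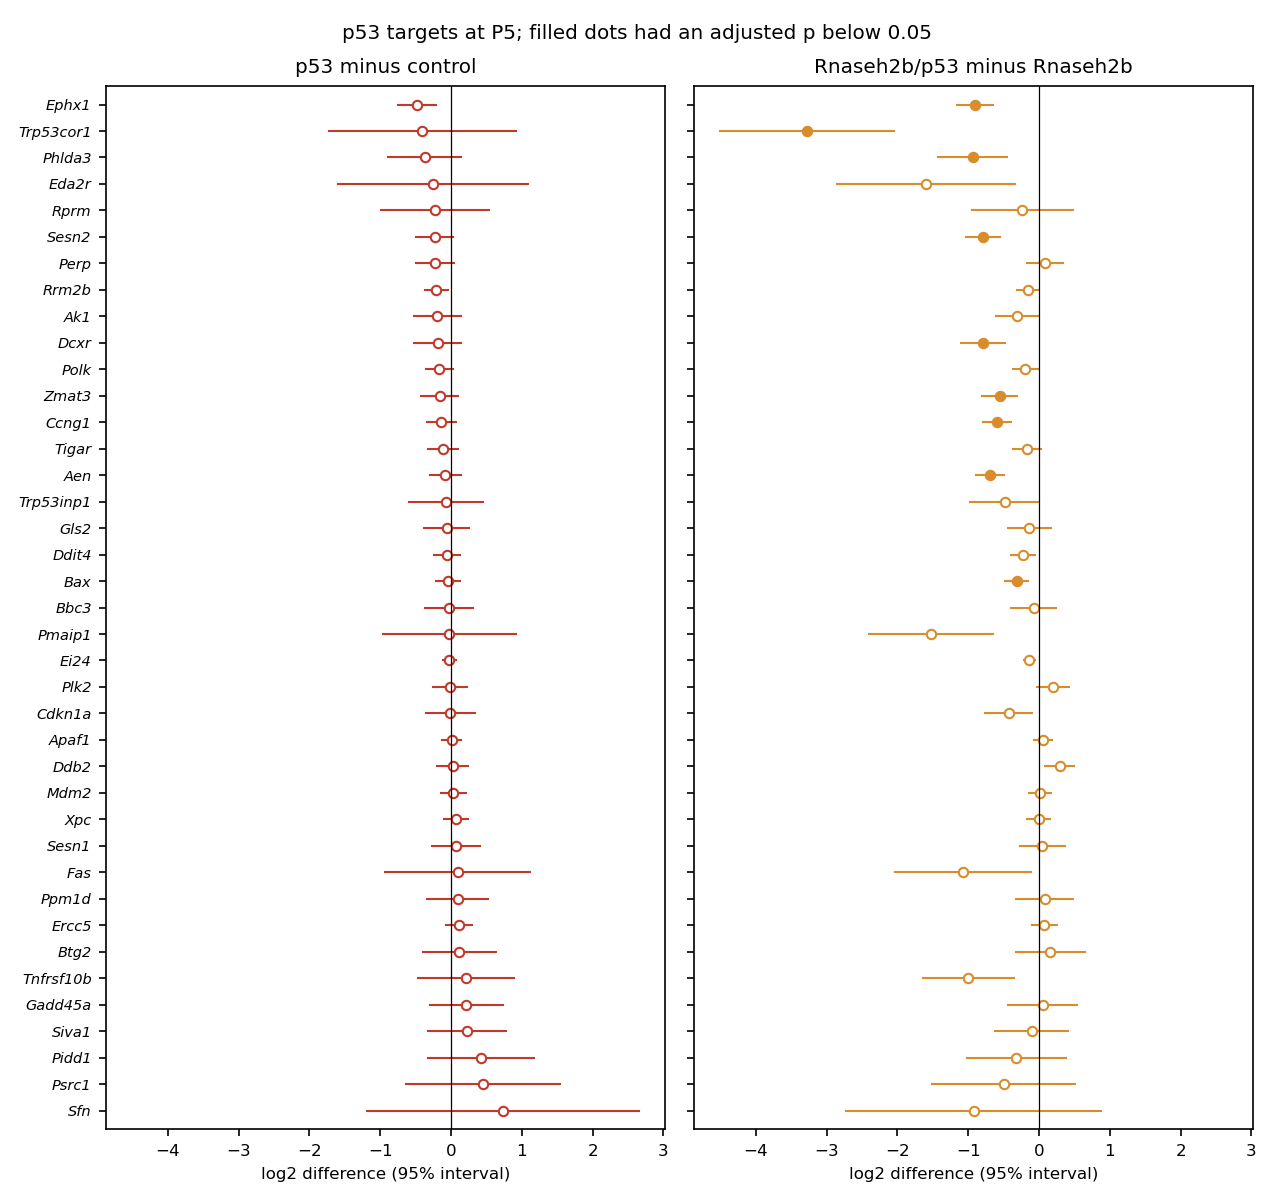
Log2 difference (horizontal) with its 95% interval for 39 p53 targets (rows), for p53 minus control on the left and Rnaseh2b/p53 minus Rnaseh2b on the right. All dots on the left are open (not called) and most lie near 0, while 9 on the right are filled and all 9 are below 0.

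The same deletion in mice that also lack Rnaseh2b gave a separate set of libraries. Both comparisons took each gene's variance from the same fit of all groups, so calls shared between them are not independent. RNase H2, the enzyme that excises ribonucleotides built into DNA, needs the subunit that Rnaseh2b encodes. Rnaseh2b/p53 against Rnaseh2b gave 466 called genes (3.02% of genes tested), 172 higher (1.12%) and 294 lower (1.91%), with n = 4 and 3. Without Rnaseh2b 3 there were 37 and without Rnaseh2b 1 there were 701, and leaving out any other single library of these groups gave 149 to 242. There were 229 with hindbrain markers as a covariate and 1140 without control 2 and Atm 1. With the replicate block there were 91, though same-numbered libraries of these groups did not deviate together throughout. Of the 27 genes called against control, 7 were called here too, all in the same direction. They are 25.9% of the 27 and 1.5% of the 466. In all, 25 of the 27 had the same sign, as did 62% of all genes tested, and 13 had the same sign with an unadjusted p under 0.05. In this comparison 2885 of 15421 genes tested had such a p in either direction.

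The 7 shared genes were Trp53, Rec8, Zfp125, Synpo2, Ddit4l, Gm10478 and Npm3-ps1. Trp53 had 2.23, 2.16, 1.76 and 1.94 log2 CPM in Rnaseh2b/p53, against 3.98, 3.67 and 4.15 in Rnaseh2b (−1.91 ± 0.29 log2, limma adjusted p = 0.00472). Rec8 had 3.50, 3.60, 3.15 and 3.39 log2 CPM in Rnaseh2b/p53, against −0.92, 0.64 and −2.45 in Rnaseh2b (4.33 ± 0.77 log2, limma adjusted p = 0.00967). Zfp125 had 2.58, 2.71, 2.64 and 2.71 log2 CPM in Rnaseh2b/p53, against −0.28, 1.59 and −0.85 in Rnaseh2b (2.51 ± 0.47 log2, limma adjusted p = 0.0114). In these 3 genes the libraries of both groups stayed apart.

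Synpo2 had 1.13, 0.28, 1.20 and 1.07 log2 CPM in Rnaseh2b/p53, against 1.73, 2.08 and 2.23 in Rnaseh2b (−1.09 ± 0.23 log2, limma adjusted p = 0.0213). Ddit4l had 0.32, 0.23, 0.17 and −0.19 log2 CPM in Rnaseh2b/p53, against 1.20, 0.96 and 1.38 in Rnaseh2b (−1.05 ± 0.22 log2, limma adjusted p = 0.0226). Neither gene had overlapping groups. Gm10478 differed by 2.67 ± 0.47 log2 and Npm3-ps1 by 2.41 ± 0.39 log2, both called. As both reached 1 CPM only in libraries with p53 deleted, they passed the filter only through groups where they are high.

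**Figure D4:**
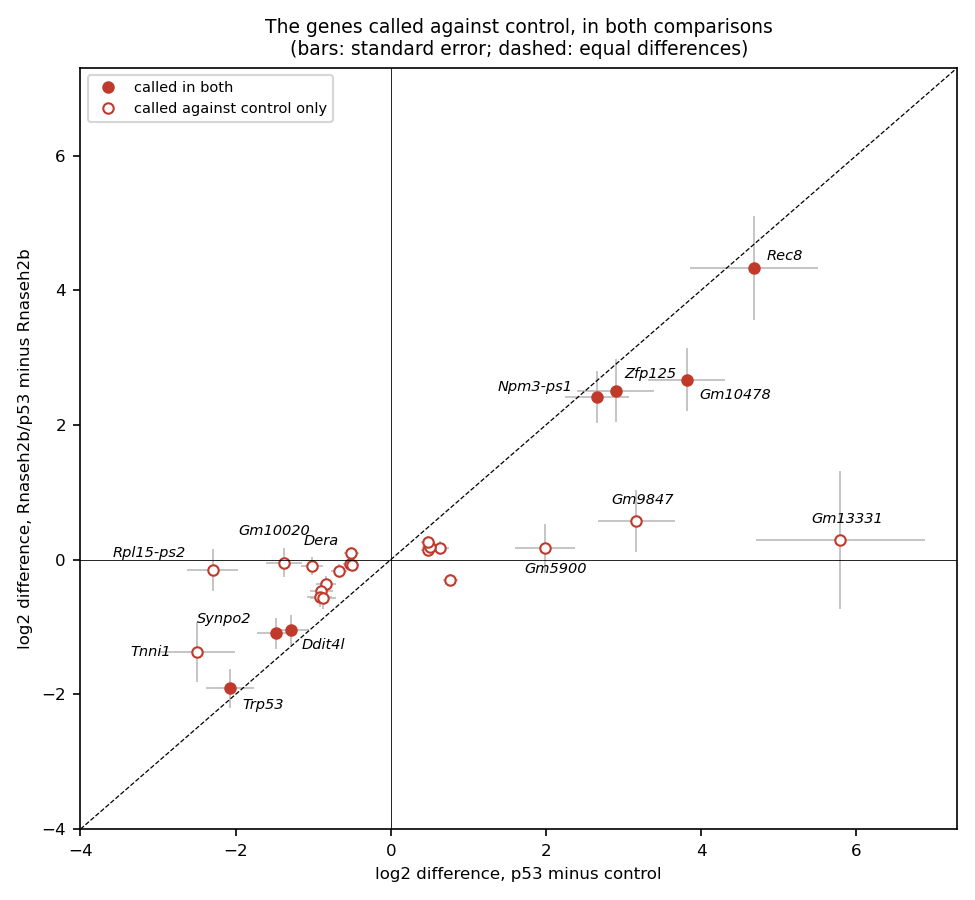
The 27 genes called against control, with their log2 difference of p53 minus control (horizontal) and of Rnaseh2b/p53 minus Rnaseh2b (vertical), with standard errors. The 7 filled dots, called in both, lie near the dashed line of equal differences, and Dera, Rpl15-ps2 and Gm10020 lie near 0 on the vertical axis.

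Some genes called against control were level between Rnaseh2b/p53 and Rnaseh2b. Dera had 2.79, 2.75, 2.64 and 2.58 log2 CPM in Rnaseh2b/p53, against 2.61, 2.83 and 2.90 in Rnaseh2b, so both groups lay near the p53 libraries and below the controls. Rpl15-ps2 had 0.74, 1.04, 0.80 and 0.76 log2 CPM in Rnaseh2b/p53, against 1.22, 0.80 and 0.93 in Rnaseh2b. Gm10020, singled out after its values were seen, showed the same order of groups, and with the replicate block its adjusted p against control was 0.0652 in limma. In the Atm libraries Dera stood at 3.66, 3.32 and 3.82 log2 CPM, and the first and last of these lay within the range of control.

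The difference between both p53 effects was tested for every gene, and 1 was called (0.00648% of genes tested). Gm15920 had 2.43, 2.42, 2.47 and 2.48 log2 CPM in Rnaseh2b/p53, against 2.72, 2.78 and 2.77 in Rnaseh2b, a difference of −0.31 log2 there and of 0.77 log2 against control. The effects had opposite signs and differed by −1.08 ± 0.13 log2 (limma, adjusted p = 0.00359). At an unadjusted p under 0.05 there were 1011 genes. Without control 1 there were 16 called, without p53 1 there were 6, without Rnaseh2b 2 there were 5, without control 3 there were 3, and without control 2 or Rnaseh2b 1 there were 2. For Trp53 the difference of effects was 0.16 ± 0.42 log2, for Rec8 −0.36 ± 1.13 and for Dera 0.92 ± 0.19 (limma, adjusted p = 0.135), without a call.

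With Rnaseh2b also deleted, 0 of 39 p53 targets rose, 9 fell and 30 were not called, where 1.91% of all genes fell. Their median was −0.24 log2, against 0.00 over all genes. The calls of this comparison vary with the libraries used, with 37 genes called in place of 466 when Rnaseh2b 3 was left out. Ephx1 fell by 0.90 ± 0.12 log2 and Aen fell by 0.69 ± 0.09 log2 (limma, adjusted p = 0.00236 and 0.00268). Ccng1 had 5.90, 5.87, 5.88 and 6.07 log2 CPM in Rnaseh2b/p53, against 6.41, 6.55 and 6.62 in Rnaseh2b, while its p53 and control libraries lay between 5.75 and 6.07. Sesn2, a sestrin that restrains mTORC1, had 3.49, 3.37, 3.50 and 3.59 log2 CPM in Rnaseh2b/p53, against 4.30, 4.34 and 4.20 in Rnaseh2b. For the difference of effects itself 0 of 39 targets were called in limma, with a median of −0.17 against −0.01 over all genes, 33 below 0, and 10 lower at an unadjusted p under 0.05. Over all genes, 1011 of 15421 had such a p in either direction. A larger effect with Rnaseh2b deletion was thus not called for any single target.

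Against the Atm libraries, which share the p53 libraries with the main comparison, p53 had 43 called genes (0.279% of genes tested), 28 higher and 15 lower. Leaving out single libraries gave 2 without p53 3, 12 without p53 1, 19 without p53 2, 13 without Atm 1, 20 without Atm 2 and 67 without Atm 3. With no other group in the fit there were 15, at 5 CPM or more 21, with Xist as a covariate 27 and on log2(FPKM + 1) 28. Trp53 differed by −1.72 log2, Rec8 by 4.22, Zfp125 by 3.23 and Dera by −0.90, all called, and Synpo2 by −0.93 and Manba by −0.61, not called. Of the 39 targets 0 were called, and their median was −0.04 log2.

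Cell cycle genes and genes of granule progenitors stood above the mean of all 3 controls, but not without control 2, and no member was called. All 20 mitotic genes were above 0 with a median of 0.34 log2, as were all 22 replication genes (0.30) and all 15 genes of granule progenitors and Sonic hedgehog signalling (0.34), with 0 called in each. Control 2 was low for them: mitotic genes summed to 1400, 1170 and 1540 CPM in p53, against 1750, 563 and 1300 CPM in control. Without control 2 the medians were −0.12 for mitotic, −0.04 for replication and −0.08 for granule progenitor genes. Gli1, a transcription factor and readout of Sonic hedgehog, had 4.10, 3.83 and 4.18 log2 CPM in p53, against 4.06, 2.34 and 3.80 in control. Granule neuron genes had a median of 0.08 and Purkinje cell genes of 0.05, which became −0.36 and −0.24 without control 2, with 0 called.

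None of 20 microglia genes was called, and 19 stood below control on average. Their median was −0.27 log2, and 8 were lower at an unadjusted p under 0.05 and 0 higher. Over all genes, 913 of 15421 had such a p in either direction and 0.175% were called. Summed, the microglia genes reached 178, 182 and 170 CPM in p53, against 201, 230 and 207 CPM in control. These sums did not overlap, as was so for 9.71% of single genes tested. Without control 2 the median was −0.24. Gpr34, a lysophospholipid receptor, had 2.34, 2.32 and 2.35 log2 CPM in p53, against 2.62, 3.01 and 2.82 in control (−0.48 ± 0.10 log2, limma adjusted p = 0.0643). In Rnaseh2b/p53 against Rnaseh2b it was called higher, by 0.37 ± 0.09 log2. Ctss, a lysosomal protease, had 2.96, 2.92 and 2.86 log2 CPM in p53, against 3.39, 3.26 and 3.35 in control (−0.42 ± 0.11 log2, limma adjusted p = 0.194), and Emr1, the macrophage antigen F4/80, differed by −0.55 ± 0.11 log2.

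Lists of other tissues and regions gave the following. Red blood cell genes summed to 499 to 714 CPM in p53 and 767 to 1060 CPM in control, with a median of −0.53 and 0 of 6 called. Endothelial and pericyte genes summed to 360 to 365 CPM in p53 and 382 to 441 CPM in control, with a median of −0.08 and 0 of 11 called. Astrocyte and Bergmann glia genes summed to 2800 to 2980 CPM in p53 and 3120 to 3300 CPM in control, with a median of −0.12 and 0 of 13 called. The sums of these lists, out of 24 lists looked at, did not overlap between the groups, as was so for 9.71% of single genes tested. Over all genes 0.175% were called, a share too low for 0 called to set any list here apart. Myelin genes had a median of −0.88, which was −0.46 without control 2, and 0 of 9 called, and their sum was 248, 470 and 485 CPM in p53, against 277, 1070 and 1000 CPM in control. Hox genes, which mark medulla and pons, summed to 0.314, 3.07 and 9.86 CPM in p53, against 0.314, 8.25 and 19.9 CPM in control, so their level varied widely within both groups. With this list as a covariate 33 genes were called against control. Choroid plexus genes had a median of 0.86 that was −0.01 without control 2, with 0 of 8 called. Interferon-stimulated genes had a median of −0.03 with 0 of 24 called, and immediate early genes a median of 0.00 with 0 of 7 called, which were −0.07 and −0.09 without control 2. The part of these tissues in the called genes was not tested beyond that covariate.

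**Figure D5:**
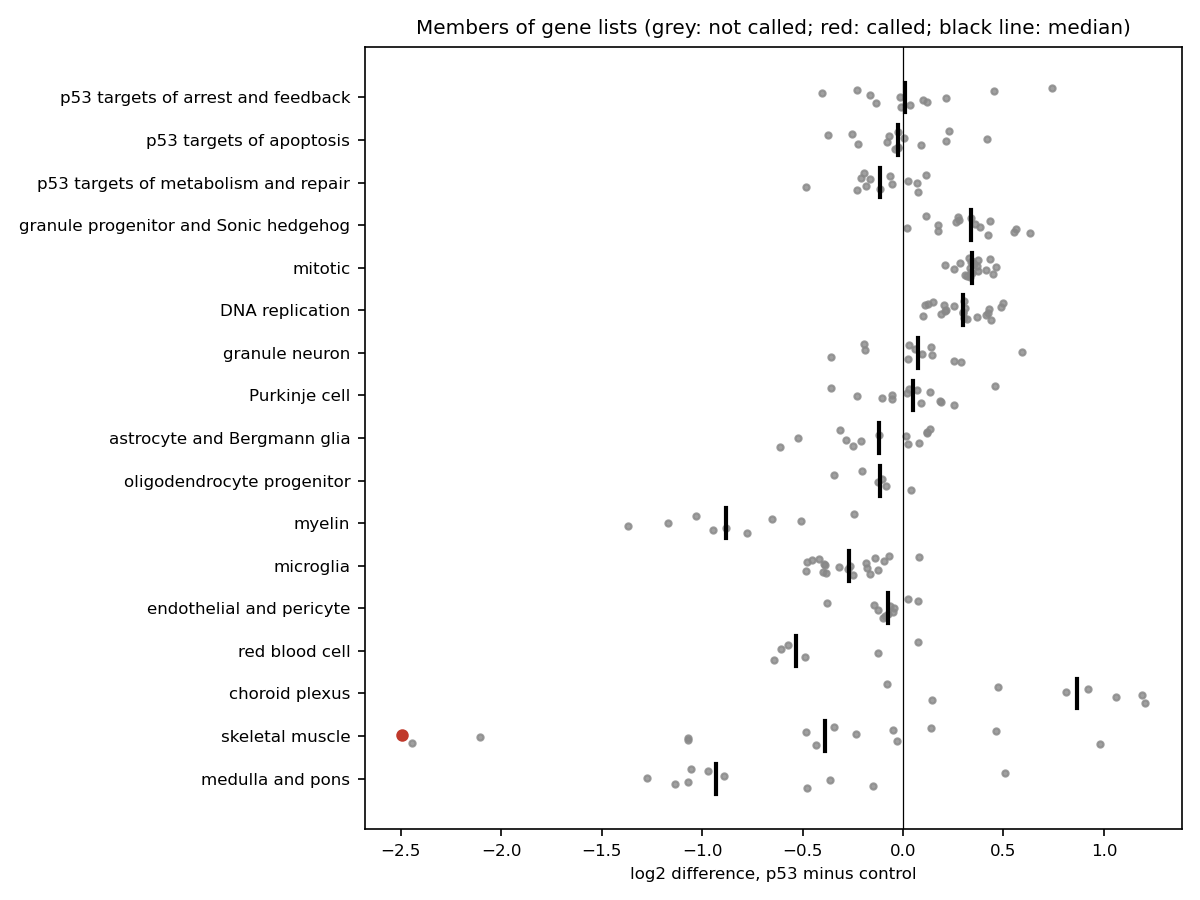
Log2 difference of p53 minus control (horizontal) for each tested member (dots) of 17 gene lists (rows), with the list median as a black line. Tnni1 is the red dot, mitotic, replication and granule progenitor genes lie right of 0, while all 9 myelin genes and 19 of 20 microglia genes lie left of it. Without control 2, which the figure includes, the medians were −0.12 for mitotic, −0.04 for replication and −0.08 for granule progenitor genes.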

How the data were processed

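Whole cerebellum yielded total RNA for stranded libraries, per the labels' protocols. The submitters' processing notes list Trim Galore, STAR, BWA, HTSeq, limma and the mm9 build, with no roles or versions; whether counting used strand is not given in the sources used here. The main values are the deposited P5 log2 CPM of the authors, and deposited FPKM gave another scale. Reads without a gene name made up 19.7% to 31.7% of a P5 library. Their rows stayed out of the tests. Columns tied to no sample numbered 0. Multiplying the log2 CPM back gave whole reads to within 0.01 for 99.9992% of values, assuming a prior that averages 0.5 read. Those reads served only for an alternative with limma voom, which called 18 genes. Depth over 20 libraries was 48.2 to 711 M reads (M, mega).

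Of 19232 features, 15421 reached 1 CPM in at least 3 libraries. limma 3.58.1 (R 4.3.3) fitted all 20 P5 libraries in 6 groups together, with a variance trend and Benjamini-Hochberg adjustment over the genes tested. Called means an adjusted p under 0.05, and only called genes are said to have risen or fallen. Errors after ± are standard errors. The fits were tested on simulated data. Alternatives covered scale, filter, covariates, the samples in the fit, the replicate block and leaving out each library.

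Same-numbered p53 and control libraries deviated together, with correlations of 0.26, 0.55 and 0.30 of their deviations from the group means, so the numbers were taken to pair them. This pairing comes from the data and not from the labels. Among unlike numbers, p53 3 and control 1 also had a positive correlation, 0.19, and the others were negative. In the fit of all 20 libraries the block is shared by all 6 groups. In other groups same-numbered libraries did not deviate together throughout. For p53 against control, blocked values stand beside the named calls they change.

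The members, the 24 gene lists and the naming rule were chosen with earlier results of these data known. Under that rule the text may name Trp53, Mdm2 and Cdkn1a, every called gene with a proper name, 4 called gene models, 6 uncalled genes without overlap in each direction, list members with the smallest p or the highest level, 5 neighbours of Trp53 on each side, and 8 leading genes of each other comparison. One list member is not reported here and was left out of its list. For the lists, 6 names were matched by synonym. A GRCm38 gene table gave names, chromosomes and gene order only. Figures were drawn with Python 3.11.15 and matplotlib 3.10.9.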

Additional observations from a re-analysis of the deposited data

Results flagged for a closer look

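The p53 effect on Gm15920 with Rnaseh2b deletion differed from that without it by -1.08 log2 (limma, adjusted p = 0.00359), a test of the difference itself.

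In the 4 Rnaseh2b/p53 libraries, 66 genes (those called against control and the p53 targets) were searched for a library far from the other libraries, and 3 had one. Chance flags about 1 in 20 groups. Synpo2 was at 0.28 log2 CPM in Rnaseh2b/p53 2 and at 1.07 to 1.20 in the others. Ccng1 was at 6.07 log2 CPM in Rnaseh2b/p53 4 and at 5.87 to 5.90 in the others. Plk2, a polo-like kinase and p53 target, was at 5.80 log2 CPM in Rnaseh2b/p53 1 and at 5.93 to 5.94 in the others. The depth of Rnaseh2b/p53 3 was 711 M reads in genes, against 48.2 to 91.4 M in the others.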

How the results depend on the processing

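None of the 27 genes called against control changed direction under any alternative run. Their number in limma was 3 when p53 and control were fitted alone, 13 with a floor of 5 CPM, and 3 to 37 without single libraries. With the replicate block, the number was 13; with the block and these groups alone, a setting chosen after seeing the data, it was 0 in limma, with 691 at an unadjusted p under 0.05, and p53 against Atm gave 2. Trp53 stayed at -2.07 log2 with these groups alone, with or without the block, but was not called (limma, adjusted p = 0.132 and 0.284), and ran from -2.41 to -1.83 without single libraries.

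Rnaseh2b/p53 against Rnaseh2b (466 called) gave 91 with the replicate block, 229 with hindbrain markers (medulla and pons) as a covariate, 1140 without control 2 and Atm 1, and 37 to 701 without single libraries. The difference of p53 effects (1 called) gave 13 with these groups alone, 2 on log2(FPKM + 0.1), 4 on log2(FPKM + 1), 2 with voom, 2 with either Xist or hindbrain markers as a covariate, 7 without control 2 and Atm 1, and 1 to 16 without single libraries. p53 against Atm (43 called) gave 15 with these groups alone, 28 on log2(FPKM + 1), 21 at 5 CPM, 24 with the replicate block, 27 with Xist as a covariate, and 2 to 67 without single libraries. Outside p53 and control, same-numbered libraries did not deviate together throughout (0.18, -0.44 and -0.23 for Rnaseh2b/p53 and Rnaseh2b; -0.04, -0.05 and 0.29 for p53 and Atm), so the block there rests on a shared number only. A floor of 5 CPM tests fewer genes and a smaller fit has fewer samples; the cause of the other shifts was not tested. Recomputing list medians without control 2 was also chosen after seeing the data. With 3 libraries a side, an exact permutation test of 1 gene cannot pass 0.05.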

Other observations

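Several cell types of the cerebellum and its coverings remain. Inhibitory interneuron genes had a median of -0.10 log2 in p53 against control with 0 of 7 called, and it was 0.00 without control 2. Oligodendrocyte progenitor genes had a median of -0.11 with 0 of 6 called, and 0.10 without control 2. Ependymal and ciliated genes had a median of 0.06 with 0 of 6 called, and 0.13 without control 2.

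Meningeal and fibroblast genes summed to 521 to 643 CPM in p53 and 631 to 744 CPM in control, with a median of -0.17 and 0 of 11 called. Midbrain genes summed to 45.8 to 58.0 CPM in p53 and 40.3 to 105 CPM in control, with a median of 0.11 that was 0.59 without control 2, and 0 of 9 were called. The median over all genes was 0.00 log2.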
